A study of Mus musculus with 18 samples.

Results

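In naive CD4 T cells, 343 of 25305 accessible chromatin regions (1.36%) had a peak mainly in libraries from the axillary lymph nodes when every library was cut to a peak list of the same length. They were measured by ATAC-seq, in which a transposase (Tn5) cuts open DNA and tags it for sequencing, so that pile-ups of tagged reads mark accessible sites. Each library was reduced to its 14000 peaks with the smallest p on chromosomes 1 to 19 and X, and overlapping peaks were merged into regions. A region was called axillary-biased when it had a peak in at least 4 of the 6 axillary libraries, with at least 2 at each sort level, and in at most 4 of the 12 mesenteric lymph node and spleen libraries. The regions were therefore chosen by the presence of peaks in axillary against other libraries, and every value of that contrast is given as a description, without a test.

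The 18 libraries formed 6 groups of 3 replicates, which were axillary high, axillary low, mesenteric lymph node (mLN) high, mLN low, spleen high and spleen low. All were untreated naive CD4 T cells of wild-type C57BL6/J mice per the labels, and no age was used here. High and low are the sorted fractions with high and low destabilised GFP from an Nr4a1 reporter. The sorted cells therefore carried this reporter, and wild-type here does not mean free of it. Signals through the T cell receptor (TCR) turn on Nr4a1, so the 2 fractions stand for high and low tonic TCR stimulation. Whether replicates are separate animals is not in the labels, so p-values cover only the spread among these libraries, part of which may be technical. ATAC-seq on a bulk sample cannot tell a region open in more cells from a region more open in each cell.

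As background, accessible regions of a T cell fall into promoters, where transcription starts, and distal elements such as enhancers, which bind transcription factors far from any start. Promoters of broadly used genes are open in most cell types and give strong peaks, whereas distal elements vary more between cell states. Naive T cells leave the blood in lymph nodes through chemokine receptors such as CCR7, leave the nodes toward a lipid gradient, and are held in quiescence by factors such as FOXO1 and FOXP1. Axillary nodes drain skin of the limb and flank, mesenteric nodes drain the gut, and the spleen filters blood.

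Few of the 343 regions lay at gene starts. On the 19 chromosomes with promoter sequences used here, 39 of 335 regions (11.6%) overlapped the window from 250 bases before to 50 bases after a RefSeq gene start. On the same chromosomes 32.7% of all regions did, and 20.7% of the regions with a peak in 6 to 10 libraries. The 39 regions covered 47 such promoters of 45 genes. The sequences shown are the 4 leading regions over the start of a protein-coding gene listed with a single start, and the start of Dnmt3a, whose locus held 2 of the regions. The sequences are from RefSeq on GRCm38.p6 (mm10), with matches to any of 7 short motifs in capitals. Helz encodes an RNA helicase with a zinc finger, and its promoter is at chr11:107547683-107547982 (+ strand). B3galt2 encodes a galactosyltransferase, with its promoter at chr1:143640447-143640746 (+ strand). Ccdc110 encodes a coiled-coil protein, with its promoter at chr8:45934369-45934668 (+ strand). Zeb2 encodes a zinc-finger transcriptional repressor, with this start at chr2:45110228-45110527 (- strand). Dnmt3a encodes a de novo DNA methyltransferase, with this internal start at chr12:3891494-3891793 (+ strand).
Helz: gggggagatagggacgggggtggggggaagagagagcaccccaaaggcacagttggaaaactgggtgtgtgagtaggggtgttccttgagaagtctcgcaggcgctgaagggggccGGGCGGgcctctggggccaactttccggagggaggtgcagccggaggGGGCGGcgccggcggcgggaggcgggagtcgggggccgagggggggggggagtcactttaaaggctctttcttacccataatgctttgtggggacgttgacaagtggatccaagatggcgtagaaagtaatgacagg
B3galt2: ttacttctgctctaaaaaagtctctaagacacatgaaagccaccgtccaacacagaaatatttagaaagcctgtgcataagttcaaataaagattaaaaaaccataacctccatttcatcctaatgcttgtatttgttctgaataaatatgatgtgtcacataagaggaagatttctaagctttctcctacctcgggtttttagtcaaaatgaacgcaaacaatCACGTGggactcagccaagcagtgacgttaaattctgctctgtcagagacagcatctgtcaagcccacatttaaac
Ccdc110: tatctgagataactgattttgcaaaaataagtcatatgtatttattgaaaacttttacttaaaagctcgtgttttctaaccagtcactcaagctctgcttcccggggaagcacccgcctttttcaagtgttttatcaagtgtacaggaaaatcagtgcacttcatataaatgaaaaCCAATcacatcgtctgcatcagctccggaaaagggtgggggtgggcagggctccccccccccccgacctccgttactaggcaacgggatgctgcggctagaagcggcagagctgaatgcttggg
Zeb2: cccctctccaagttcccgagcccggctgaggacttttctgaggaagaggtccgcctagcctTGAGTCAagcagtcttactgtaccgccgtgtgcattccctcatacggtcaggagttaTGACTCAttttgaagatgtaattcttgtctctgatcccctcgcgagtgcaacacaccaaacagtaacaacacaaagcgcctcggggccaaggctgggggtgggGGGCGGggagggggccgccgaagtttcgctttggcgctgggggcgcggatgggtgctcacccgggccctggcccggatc
Dnmt3a: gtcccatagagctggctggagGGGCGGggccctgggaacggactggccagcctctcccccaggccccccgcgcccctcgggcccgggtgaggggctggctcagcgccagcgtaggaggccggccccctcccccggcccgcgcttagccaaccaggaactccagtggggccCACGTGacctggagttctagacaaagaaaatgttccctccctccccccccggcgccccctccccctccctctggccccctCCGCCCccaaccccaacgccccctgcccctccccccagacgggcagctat

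The capitals mark GGGCGG on either strand in Helz, CACGTG in B3galt2, CCAAT in Ccdc110, TGANTCA at 2 places and GGGCGG at 1 in Zeb2, and GGGCGG at 2 places and CACGTG in Dnmt3a. The Helz region (chr11:107547348-107547850) had a peak in 5 axillary, 0 mLN and 1 spleen libraries. The B3galt2 region (chr1:143640546-143641098) had one in 5 axillary, 2 mLN and 0 spleen libraries. The Ccdc110 region (chr8:45934599-45935076) had one in 6 axillary, 2 mLN and 2 spleen libraries. The Zeb2 region (chr2:45109905-45110393) had a peak in 5 axillary, 1 mLN and 1 spleen libraries, and the Dnmt3a region (chr12:3891056-3891727) in 4, 2 and 2. Each of these regions overlapped only one side of its window. The open interval therefore ran past the sequence shown, and part of each sequence lay outside the region. The match in Ccdc110, the first 2 in Zeb2 and the last in Dnmt3a lay outside the regions. The last match in Helz crossed the edge of its region.

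The letters of 7 motifs were searched on both strands of the 47 promoters, and counted in the same window of all 32851 promoters and of the 10489 promoters that any of the regions overlapped. The ETS core CCGGAAG was in 10 of 47 (21.3%), against 20.9% of promoters under any region and 8.86% of all promoters. The SP/KLF box GGGCGG was in 27 (57.4%), against 69.6% under any region and 35.7% of all. The AP-1 site TGANTCA was in 5 (10.6%), against 3.99% and 7.81%, and the RUNX core TGTGGT in 9 (19.1%), against 11.8% and 16.8%. The NFY box CCAAT was in 15 (31.9%, against 38.4% and 37.4%), the E-box CACGTG in 6 (12.8%, against 11.1% and 7.15%) and the TCF/LEF core ATCAAAG in 3 (6.38%, against 2.52% and 3.73%). None of these motifs contains another, and a match is a description of the letters alone. Matches were counted over the whole window, whether or not they lay inside the region. Some of the windows overlap, so the same site can count more than once. Examples are the windows of Mocs3 and Dpm1, and those of Chdh and Il17rb. These promoters held a median of 19 CpG pairs, against 23 under any region and 7 over all promoters. The regions away from promoters are not shown as sequence.

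The peaks at the 343 regions were weak ones. Within the 6 axillary lists, where rank percentile 0 is the weakest of the 14000 peaks and 100 the strongest, the median percentile of the regions was 20.5 to 23.4. Their median fold enrichment, the ratio of reads at the summit to the local background in the authors' peak call, was 6.45 to 6.83 in the axillary libraries, below the 7.99 to 8.37 of the whole lists. The median number of reads at a summit, recovered from the authors' fold and p, was 9 to 11 in an axillary library. Over single regions the mean number of summit reads in the axillary lists that held the peak ran from 6.25 at Mrps18a to 23.4 at St3gal1. Of the 343 regions, 186 had a peak in 4 axillary libraries, 135 in 5 and 22 in 6. In the other 12 libraries 6 regions had no peak, 39 had 1, 67 had 2, 90 had 3 and 141 had 4.

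By library, axillary high replicates 1 to 3 had a peak at 249, 251 and 272 of the 343 regions, and axillary low replicates at 252, 275 and 252. The mLN high replicates had one at 84, 85 and 85, and mLN low replicates at 77, 98 and 77. The spleen high replicates had one at 62, 73 and 69, and spleen low replicates at 109, 78 and 110. Axillary libraries averaged 258.5 ± 11.7 (SD, n = 6), against 83.9 ± 15.0 in the mLN and spleen libraries (SD, n = 12). The groups did not overlap, which the choice of the regions fixes.

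**Figure D1:**
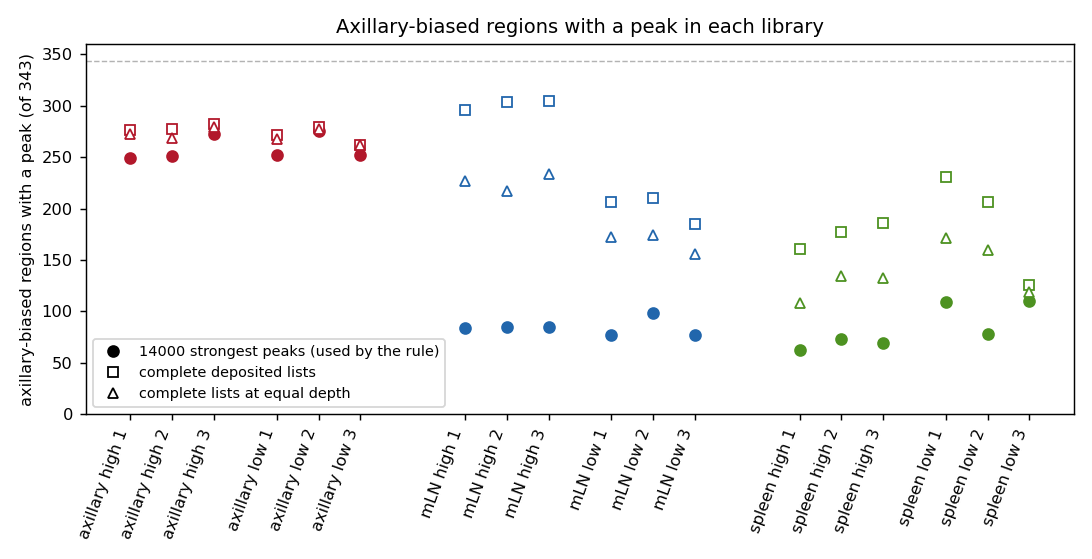
Number of the 343 axillary-biased regions with a peak in each of the 18 libraries (y axis, regions), in the equal lists, in the complete lists and after thinning all libraries to equal depth. In the equal lists the 6 axillary libraries sit between 249 and 275 and the other 12 between 62 and 110, while in the complete lists the mLN high libraries reach 296 to 305.

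The complete deposited lists gave another picture of the same regions. They held 14372 to 15898 peaks in axillary libraries, 17203 to 23129 in mLN libraries and 14514 to 18008 in spleen libraries. In them the axillary high replicates had a peak at 276, 277 and 282 of the regions and the axillary low replicates at 271, 279 and 262. The mLN high replicates had one at 296, 304 and 305, above every axillary library. The mLN low replicates had one at 206, 210 and 185, the spleen high replicates at 161, 177 and 186, and the spleen low replicates at 231, 206 and 126. The axillary mean was 274.5 ± 7.12 (SD, n = 6), against 216 ± 58.0 in the others (SD, n = 12). Only 19 of the 343 regions (5.54%) still had a peak in at most 4 of the 12 mLN and spleen libraries, and 324 had one in 5 or more. All 343 had a peak in at least 1 mLN library, and 8 had none in any spleen library. In all 3 mLN high libraries together, 240 of the regions had a peak, and 2 had a peak in none of the 3.

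The cut at 14000 peaks fell at different strengths. The weakest peak kept had a −log10 p of 6.85 to 8.31 in axillary libraries, 12.3 to 12.4 in mLN high libraries, 9.18 to 9.40 in mLN low libraries and 9.12 to 9.59 in spleen libraries other than spleen low replicate 3, where it was 7.12. The median −log10 p of the regions' peaks in the complete lists was 9.80 to 10.2 in axillary, 10.9 to 11 in mLN high, 8.78 to 9.09 in mLN low and 8.54 to 9.47 in spleen libraries. The median lay over the cut in the 6 axillary libraries and spleen low replicate 3, and under it in the other 11. In mLN high libraries 212, 219 and 220 of the regions had a peak that the cut removed. In axillary libraries the cut removed 4 to 27 of them. It removed 129, 112 and 108 in mLN low libraries, 99 to 128 in spleen libraries other than spleen low replicate 3, and 16 in that library.

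**Figure D2:**
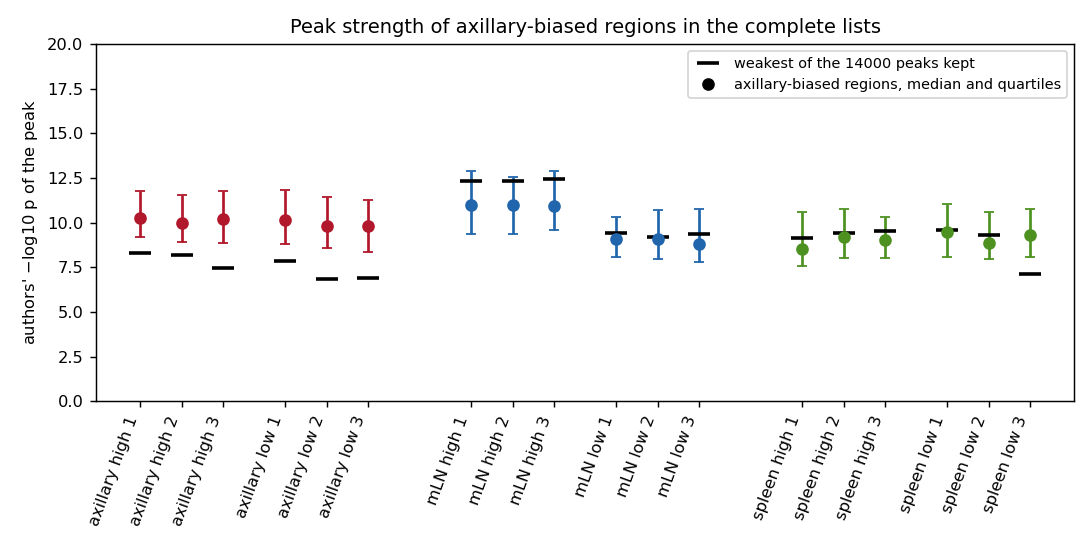
Strength of the peaks at the 343 regions in the complete list of each library (−log10 p on the y axis; points are medians and bars run from the 25th to the 75th percentile), with the −log10 p at which the 14000-peak list ends drawn as a line mark. The mark lies between 6.85 and 8.31 in axillary libraries, under the medians of 9.80 to 10.2, and between 12.3 and 12.4 in mLN high libraries, over the medians of 10.9 to 11. In the mLN low libraries and in the spleen libraries other than spleen low replicate 3 the mark also lies over the median.

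Depth and fragment length moved with the organ. Background reads per 10 kb, recovered from the peak values, were 8.48 to 10.2 in axillary libraries, 16.6 ± 0.0549 in mLN high (SD, n = 3), 12.2 ± 0.471 in mLN low, 13.7 ± 0.441 in spleen high and 12.5 ± 2.40 in spleen low. The narrowest peak of a list, which follows the fragment length used in peak calling, was 216 to 236 bp in 5 axillary libraries and 176 bp in axillary high replicate 2. It was 161 to 172 bp in the other libraries apart from spleen low replicate 3, at 233 bp. Axillary high replicate 2, with the short fragments, had a peak at 251 of the regions in its equal list. Spleen low replicate 3, with the long fragments and 9.84 reads per 10 kb, had one at 110 in its equal list and 126 in its complete list, above the 62 to 109 of the other 11 mLN and spleen libraries in the equal lists and below their 161 to 305 in the complete lists. The part of fragment length in the counts was not tested.

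With all libraries thinned to the depth of the shallowest, and the peaks still past a −log10 p of 5 kept, axillary libraries had a peak at 262 to 279 of the regions, against 156 to 234 in mLN libraries and 108 to 171 in spleen libraries. The means were 271 ± 6.24 in axillary, 197 ± 33.2 in mLN and 137 ± 24.0 in spleen (SD, n = 6 each), and mLN high, at 217 to 234, lay next to axillary. The share of axillary libraries with a peak was above that of the other libraries at 318 of the 343 regions, below it at 12 and equal at 13. In the complete lists without thinning these numbers were 257, 50 and 36. The thinning was chosen after the data were seen, it is 1 draw, and it cannot restore a peak that the authors' list does not hold.

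As a check of the labelled cell type, 9 of 10 CD4 T cell marker genes were nearest to 37 regions, of which 10 had a peak in all 18 libraries, among them regions at Cd4 and Tcf7. Others were in fewer libraries. The 1 region at Cd3e reached 3 axillary and 4 other libraries, and the 2 regions at Lck reached 6 axillary and 10 other libraries. Ms4a1 and Cd79a of B cells, Csf1r and Lyz2 of myeloid cells, Itgax of dendritic cells, Ncr1 of NK cells and Cd8a of CD8 T cells had no region. Other markers did, with 4 regions at 2 of 7 B cell genes, 8 at 3 of 4 NK cell genes and 3 at 2 of 6 myeloid genes. There were also 3 at 1 of 5 dendritic genes, 3 at 3 of 4 erythroid genes and 5 at 2 of 7 stromal genes. Of these, 1 NK cell and 1 dendritic marker region had a peak in all 18 libraries. Cd8b1 had 2 regions, reaching 6 axillary and 11 other libraries. Of the regions nearest to markers of B, CD8 T, NK, myeloid, erythroid and stromal cells, 0 of 25 were axillary-biased. Among dendritic marker regions 1 of 3 was, at Flt3. Of all regions 1.36% were, so 25 and 3 regions are too few to show a difference. Whether other cells contributed to the regions was not tested.

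The region with the clearest contrast lay inside Camk2g (chr14:20775673-20776087, 18277 bp from the nearest gene end), which encodes the gamma subunit of the calcium and calmodulin-dependent kinase II. It was the 1 region with a peak in all 6 axillary lists and in none of the other 12 equal lists. Its fold enrichment was 6.99, 6.33 and 6.20 in axillary high replicates and 5.67, 5.96 and 8.10 in axillary low replicates, at 7 to 12 reads. In the complete lists it also had peaks with folds of 7.49, 7.41 and 7.26 in the mLN high replicates, 4.91 in mLN low replicate 3 and 5.90 in spleen low replicate 1. The mLN high folds lay within the axillary range, and 5 of the 6 spleen libraries listed no peak.

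The second region of this kind lay inside Pde4b (chr4:102557959-102558617), which encodes a phosphodiesterase that breaks down cyclic AMP, an inhibitor of TCR signalling. Its folds were 6.74 and 8.76 in axillary high replicates 1 and 2 and 5.85, 8.99 and 6.26 in axillary low replicates. Axillary high replicate 3 had a peak of 5.43 under the cut. In the complete lists it had 1 mLN peak, of 6.57 in mLN high replicate 3, and spleen low peaks of 5.76, 5.36 and 4.93. Of the 20 leading regions it was the one with the fewest mLN libraries in the complete lists, 1 of 6, against 6 of 6 axillary and 3 of 6 spleen libraries.

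Tram1, which encodes a membrane protein of the protein translocation channel of the endoplasmic reticulum, was the gene nearest to a region 3545 bp outside it (chr1:13593242-13593669). That region had folds of 6.42, 7.72 and 5.23 in axillary high replicates and 6.02, 5.53 and 10.1 in axillary low replicates. In the equal lists it also had 8.02 in mLN high replicate 3 and 6.12 in spleen high replicate 3. Pbx3, a homeobox factor gene, was nearest to a region (chr2:34074008-34074429) with folds of 6.72, 10.2 and 6.32 in axillary high and 6.88, 8.02 and 6.85 in axillary low replicates. The same region had 7.03, 7.72 and 7.27 in the 3 spleen low replicates and no peak in any mLN or spleen high equal list. The axillary and spleen low folds overlapped there.

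Of the 20 leading regions, 2 lay nearest to genes on the lists described next, at Cd69 and Gata3. The others lay nearest to genes of diverse functions, among them Sec11c of the signal peptidase, Cdk19 of the Mediator kinase module, Dock10, which encodes an exchange factor for small GTPases, and Ascl4, a bHLH factor gene. Over the 20, mean axillary folds were between 5.48 at Dock10 and 7.50 at Pbx3. In the complete lists 19 of the 20 had a peak in 2 or more mLN libraries, and Ascl4 had none in spleen. The region at Gm19774, inside Arhgap26, had folds of 5.92 to 8.56 in axillary libraries and of 13.2 and 13.0 in mLN high replicates 1 and 2, the highest of any library at it.

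**Figure D3:**
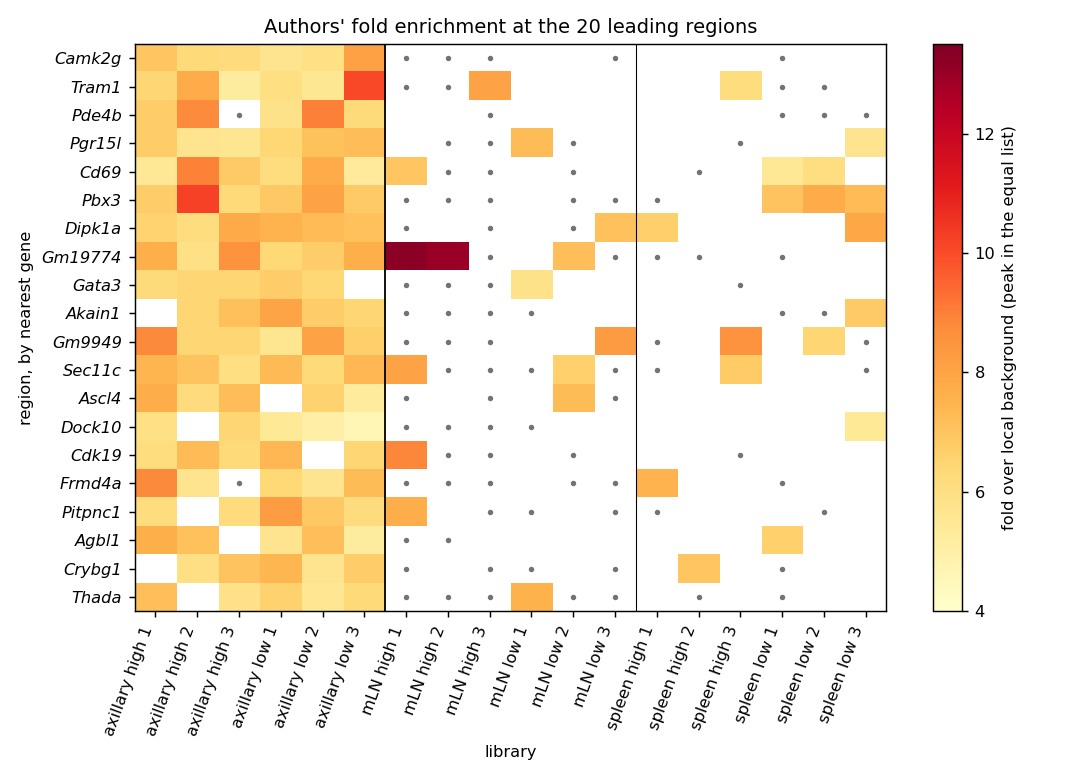
Fold enrichment of the strongest peak (colour, authors' ratio to background) at the 20 leading regions (rows, by nearest gene) in each of the 18 libraries (columns, axillary first). Coloured cells have a peak in the equal list, grey dots mark a peak in the complete list only, and empty cells have none. Camk2g is coloured in the 6 axillary columns alone, with grey dots in 5 others.

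Among genes of TCR signalling and activation, 4 of 207 regions were axillary-biased (1.93%, against 1.36% of all regions), at Cd69, Zap70, Tnfaip3 and Dgka. The same rule turned round gave 1 mLN-biased and 3 spleen-biased regions of the 207. Cd69 encodes an early activation marker that holds T cells in tissue by opposing S1PR1, and its region lay 38051 bp outside the nearest gene end (chr6:129229036-129229511). The folds were 5.52, 8.96 and 6.83 in axillary high replicates and 6.14, 7.74 and 5.36 in axillary low replicates, with 12 to 22 reads. The equal lists of mLN high replicate 1, spleen low replicate 1 and spleen low replicate 2 held peaks of 6.97, 5.49 and 6.06. These lay within the axillary range.

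Zap70 encodes the kinase that docks on the activated TCR complex, and its region lay inside the gene (chr1:36766912-36767481). Its folds were 6.22, 7.33 and 6.30 in axillary high replicates and 6.42 and 5.50 in axillary low replicates 1 and 3. The peaks of mLN high replicates 1 and 2 were 7.87 and 7.38, above all the axillary ones, and no spleen equal list held a peak. Tnfaip3 encodes A20, an inhibitor of NF-kB signalling, and its region (chr10:19127426-19128033) had folds of 7.46, 7.37 and 6.42 in axillary high and 7.56 and 5.56 in axillary low replicates 2 and 3. It had 8.81 in mLN high replicate 2 and 6.87 in spleen low replicate 1. Dgka encodes a diacylglycerol kinase that limits TCR signals. Its region had a peak in 4 axillary, 3 mLN and 0 spleen equal lists, and in 5, 6 and 3 complete lists.

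Among genes of naive state and quiescence, 7 of 208 regions were axillary-biased (3.37%), against 4 mLN-biased and 7 spleen-biased ones. Foxo1, a factor that drives Ccr7 and Il7r, was nearest to 2 of them, both outside the gene (chr3:52572452-52572925 and chr3:52647872-52648253) and 222579 bp and 297953 bp from it. The nearer had folds of 6.04 and 7.89 in axillary high replicates 1 and 2, 6.15 and 6.24 in axillary low replicates 1 and 2, and 7.23 and 5.45 in spleen low replicates 1 and 3. The farther had 6.95 and 6.90 in axillary high replicates 1 and 2, 5.59 and 5.21 in axillary low replicates 1 and 2, and 6.04 in spleen low replicate 2. Neither had a peak in an mLN equal list, and each had 3 in the complete ones.

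Satb1, which encodes a chromatin organiser of T cells, was also nearest to 2 regions. The one inside the gene (chr17:51763352-51763917) had folds of 5.85 and 6.04 in axillary high replicates 1 and 2, 5.02 and 7.26 in axillary low replicates 2 and 3, and no peak in the other 12 equal lists. In the complete lists 4 mLN libraries and 1 spleen library had it. The one outside the gene (chr17:51879183-51879667) was in 5 axillary, 3 mLN and 1 spleen equal lists. Btg1, an antiproliferative gene, was nearest to a region in 5 axillary, 0 mLN and 3 spleen equal lists, and Foxp1, a factor of T cell quiescence, to one in 4, 4 and 0. Ccr7, the receptor that guides naive T cells into lymph nodes, was nearest to a region (chr11:99136408-99136823) in 4 axillary, 1 mLN and 3 spleen equal lists. Its folds were 7.27 and 5.48 in axillary high replicates 1 and 3 and 7.08 and 5.66 in axillary low replicates 2 and 3. The 7.86 of mLN low replicate 1 and the 8.09 of spleen low replicate 2 were above all of these, and the 6.47 of both spleen high replicates 1 and 3 lay among them.

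Of T helper and regulatory genes, 2 of 71 regions (2.82%) were axillary-biased, at Gata3 and Bcl6. The same rule turned round gave 3 mLN-biased regions and 1 spleen-biased one. Gata3 encodes the factor of type 2 helper fate and of CD4 T cell development, and its region (chr2:9867375-9867768) lay inside the gene, 10493 bp from its end. The folds were 6.24, 6.42 and 6.42 in axillary high replicates and 6.72 and 6.38 in axillary low replicates 1 and 2, a mean of 6.44 ± 0.176 (SD, n = 5). The peak of mLN low replicate 1 was 5.81, and the complete lists also had 5.30, 4.94 and 5.87 in the mLN high replicates and 6.10 in spleen high replicate 3. All of these were under the 5 axillary folds, but axillary low replicate 3 had no peak even in its complete list. By −log10 p, the peak of mLN high replicate 3 (10.2248) lay above that of axillary high replicate 1 (10.1203). The other mLN and spleen peaks lay below all the axillary ones. Bcl6, which encodes the repressor that directs follicular helper fate, was nearest to a region (chr16:24151215-24151756) with axillary folds of 5.60 to 7.55 and no mLN equal-list peak. The same region had 7.16 in spleen high replicate 3 and 6.16, 6.49 and 10.0 in spleen low replicates, the last of them above every axillary library.

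The remaining lists held few or none of the regions. Homing and migration genes had 1 of 62 (1.61%), near Cxcr4, which encodes the receptor of CXCL12. It had peaks in 4 axillary, 2 mLN and 1 spleen equal lists, but in 4, 5 and 5 complete lists, so that its axillary share lay below the share of the other libraries there. Its highest fold was 11 in mLN high replicate 1. ETS, RUNX and other T cell factors had 1 of 110 (0.909%), at Runx1. Of the regions nearest to AP-1, NFAT, NF-kB and IRF genes 0 of 92 were axillary-biased, as were 0 of 71 for retinoic acid, vitamin D and TGF-beta genes, 0 of 19 for clock and stress genes and 0 of 12 for interferon response genes. Retinoic acid is a signal of gut-draining nodes, and its list had 3 mLN-biased regions and 1 spleen-biased one. The T helper and regulatory list, also of 71 regions, had the same counts. Over all regions, 1.24% were mLN-biased and 1.23% spleen-biased. Counts this small were not tested.

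The 343 regions had 331 nearest genes. The 12 genes nearest to a pair of regions included Foxo1 and Satb1, and also Prkcq, the kinase that couples the TCR to NF-kB, Dnmt3a, the ubiquitin ligase gene Smurf1 and the lipid kinase gene Pip4k2a. Of the 12, 3 act on sialic acids: Gne encodes the enzyme that starts their synthesis and St3gal1 and St8sia1 encode sialyltransferases. This was noticed after the names were seen and has no list or test. Their 6 regions had a peak in 4 to 6 axillary, 1 to 3 mLN and 0 to 3 spleen equal lists, and in 3 to 5 mLN and 1 to 4 spleen complete lists. At 9 places 2 of the regions lay within 50 kb of each other, the closest being the pair in St8sia1 with 7463 bp between them. By chromosome, 34 of the regions were on chromosome 1 (2.02% of its regions), 22 on chromosome 12 (1.99%) and 4 on chromosome 19 (0.585%).

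The regions just inside and just outside the rule had similar strengths. The 186 regions with exactly 4 axillary libraries had a median percentile of 20.9 and a median fold of 6.73, and the 141 with 4 other libraries had 23.1 and 6.81. Just outside, 608 regions with 3 axillary libraries had 19 and 6.56, with Nrp1, Pitpnm2 and Slc37a3 first. A further 133 regions failed because 1 level had only 1 library, with 19.9 and 6.65, with Lxn and Rap2a among the first. Another 171 failed because 5 other libraries had a peak, with 24.7 and 6.94, led by Fut8, Xdh and Zeb1, each in 6 axillary, 3 mLN and 2 spleen lists.

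Position was not used by the rule, and by position the regions were distal. Of the 343, 40 had their centre within 1000 bp of either end of a protein-coding gene, which is 11.7% (95% Wilson interval 8.68 to 15.5, counting error only). The same rule turned to the other organs gave 313 mLN-biased regions (1.24% of all) and 310 spleen-biased ones (1.23%), of which 87 (27.8%) and 85 (27.4%) lay that near. Of all 25305 regions the share was 35.8%, and of the 3184 regions with a peak in 6 to 10 libraries it was 23.7%. The median distance to a gene end was 19507 bp for the axillary-biased regions, 7152 bp for the mLN-biased, 10058.5 bp for the spleen-biased and 6118 bp for all. Between 10 and 100 kb from a gene end lay 191 of the 343 (55.7%), against 38.7% of the mLN-biased, 41.9% of the spleen-biased and 35.9% of all regions. Beyond 100 kb lay 39 (11.4%), against 4.79%, 8.06% and 6.90%.

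The share inside a gene differed less, at 56.3% of the axillary-biased, 57.2% of the mLN-biased, 52.3% of the spleen-biased and 60.3% of all regions. Overlap with a promoter window was found for 11.6% of the axillary-biased regions, 21.3% of the mLN-biased and 26.4% of the spleen-biased. Over all regions on the chromosomes with promoter sequences it was 32.7%. The median rank percentile in the own organ was alike in the 3 sets, at 22.5, 21.8 and 23.3, whereas the median fold was 6.76, 8.22 and 7.36. The median width was 477 bp for the axillary-biased, 412 bp for the mLN-biased, 424 bp for the spleen-biased and 469 bp for all regions. Peaks of the whole axillary lists were also wider, with library medians averaging 394 ± 29.8 bp (SD, n = 6), against 342 ± 25.8 bp in the other libraries (SD, n = 12). Regions are not replicates, so the shares have no test over samples, and 2 regions were shared with each of the other sets. The whole equal lists of the axillary libraries had 49.4% to 50.3% of their peaks within 1000 bp of a gene end, and those of the other 12 libraries 50.8% to 52.1%. The groups did not overlap. Weak peaks near the cut were not compared in this way, and the part of this difference in that between the sets was not tested. Under the 8 other ways of making the lists that were run for all 3 sets, 10.5% to 15.6% of axillary-biased, 23.7% to 44.0% of mLN-biased and 20.0% to 42.6% of spleen-biased regions lay within 1000 bp of a gene end.

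**Figure D4:**
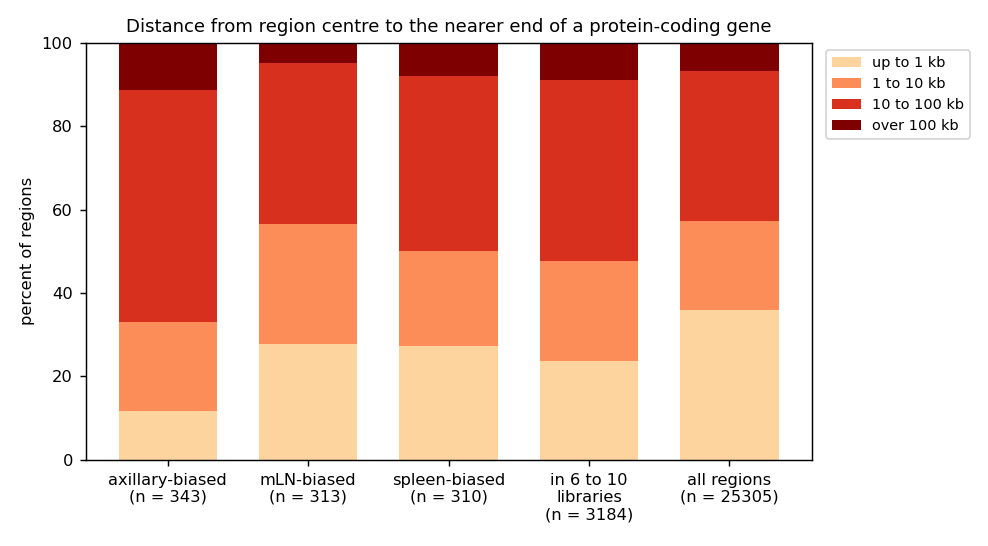
Share of regions (y axis, percent) in 4 classes of distance from the region's centre to the nearest end of a protein-coding gene (stacked colours, kb), for axillary-biased, mLN-biased and spleen-biased regions, those in 6 to 10 libraries and all regions (x axis). Axillary-biased regions have the smallest share within 1 kb, 11.7% against 27.8%, 27.4%, 23.7% and 35.8%, and the largest share from 10 to 100 kb, 55.7%.

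The sets also differed in how much the complete lists kept of the bias. Axillary-biased regions had a peak in 80.0% of axillary and 63.0% of other complete lists. The mLN-biased regions had one in 91.9% of mLN and 42.9% of other complete lists, and spleen-biased regions in 86.2% of spleen and 49.9% of other complete lists. At most 4 complete lists of other organs held 19 of the 343 axillary-biased regions, 112 of the 313 mLN-biased and 62 of the 310 spleen-biased ones. The complete lists differed in length by organ, with 14372 to 15898 peaks in axillary libraries. They held 17203 to 23129 peaks in mLN and 14514 to 18008 in spleen libraries. The part of list length in these differences between the sets was not tested.

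The rule used the sort level, since it asked for at least 2 libraries of each, and so removed regions whose axillary peaks came mainly from 1 level. The number of axillary libraries with a peak at each level is therefore bounded by the choice and is not compared. The size of a difference in peak strength between levels was not used. Strength itself was, since a peak counted only when its −log10 p kept it in the equal list. Members therefore passed that cut in at least 2 libraries of each level, and rank percentiles follow the same −log10 p. Rank percentiles were compared with limma over all 8916 regions with a peak in the 6 axillary equal lists, among them 22 of the 343. No region was called at an adjusted p under 0.05 (0% of all tested, and 0 of the 22). At an unadjusted p under 0.05 there were 489 regions (5.48%), 252 higher in high (2.83%) and 237 lower (2.66%), and 1 of the 22 members, at Prmt5. Prmt5 encodes an arginine methyltransferase. Its region (chr14:54518663-54519016) had a mean percentile of 59.8 in axillary high and 34.4 in axillary low libraries, a difference of 25.4 ± 11.6 (SE, from limma; adjusted p = 0.858). The largest differences the other way were −25.1 at Kcnh8 and −22.3 at Ddx10. At Cd69, itself a target of TCR signals, the mean percentile was 43.3 in high and 34.5 in low libraries, a difference of 8.86 ± 16.5 (SE; limma adjusted p = 0.959). The 22 had a median difference of −4.33, against −0.18 over all, with 8 above 0 and 14 below. This median was −0.82 without axillary high replicate 3 and −10.4 without axillary low replicate 2. With regions in at least 2 libraries of each level tested, all 343 could be compared, with 169 above 0, 174 below and a median of −0.53, against −0.08 over all 11715. All these ranks, of members and of the other regions, are of peaks that passed the cut. The medians and signs of the members are therefore a description, and the part of the cut in them was not tested.

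**Figure D5:**
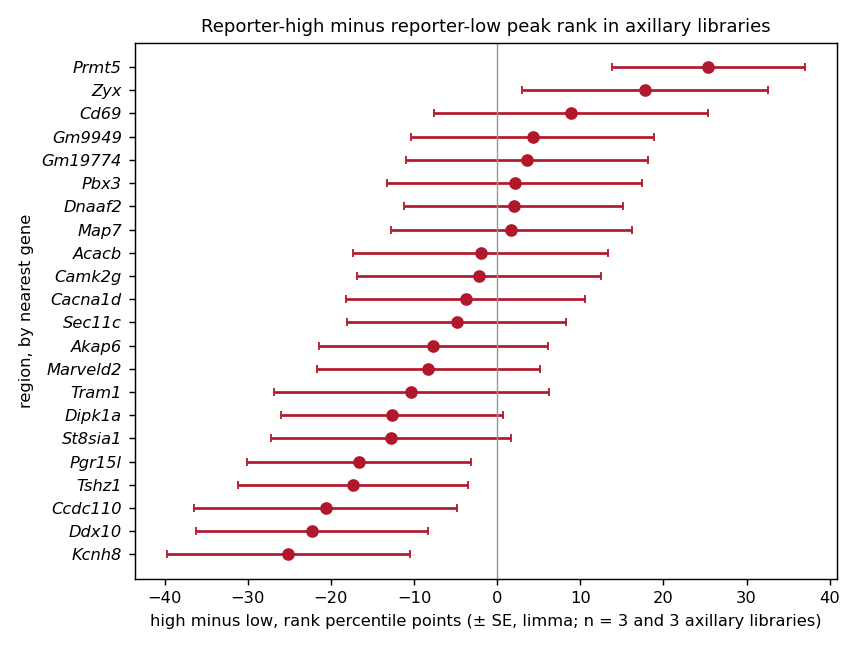
Difference in mean rank percentile between axillary high and axillary low libraries (x axis, percentile points) for the 22 regions with a peak in all 6 axillary lists (rows), with bars of 1 limma standard error. The differences run from −25.1 at Kcnh8 to 25.4 at Prmt5, and none had an adjusted p under 0.05.

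Over all 3 organs, Fisher's exact test compared the number of the 9 high and 9 low complete lists with a peak, at the 5641 regions present in 6 to 12 lists, of which 173 were axillary-biased. None was called after adjustment (0% of all, smallest adjusted p = 0.116 over all and 0.491 among the 173). At an unadjusted p under 0.05 there were 341 regions (6.05%), 326 with more high lists (5.78%) and 15 with fewer (0.266%). Among the 173 there were 3 with more and 0 with fewer, at Cog6, Nf2 and Cdhr3. At Cog6, of the Golgi tethering complex, 8 of the 9 high lists and 2 of the 9 low lists held a peak (two-sided Fisher's exact test p = 0.0152, adjusted p = 0.491). These counts include the axillary lists, where the rule bounds the difference between levels, so they are a description of the 173 and are not set against the rest. The mLN high lists were the longest of all, and the part of list length in these counts was not tested.

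The rule treated mLN and spleen alike, and the equal lists held as many regions with more mLN than spleen peaks (125) as with fewer (125), with 93 even. In the complete lists 229 of the 343 had more mLN than spleen peaks, 54 fewer and 60 as many. No share over all regions is given for these counts. The complete lists were longer in mLN libraries, with 17203 to 23129 peaks, than in spleen libraries, with 14514 to 18008. The mean number of libraries was 4.80 of 6 axillary, 4.39 of 6 mLN and 3.17 of 6 spleen. Fisher's exact test over the 6119 regions in 4 to 8 of these 12 complete lists called no region after adjustment (0% of all; 222 axillary-biased regions tested, smallest adjusted p = 0.441). At an unadjusted p under 0.05 there were 180 regions (2.94%), 160 with more mLN lists (2.61%) and 20 with fewer (0.327%), and among the 222 there were 3 with more and 0 with fewer. Prss32, a serine protease gene, had a peak in 6 of 6 mLN and 0 of 6 spleen lists (two-sided Fisher's exact test p = 0.00216, adjusted p = 0.441). Pdhx had 5 and 0, and Dennd1a 6 and 1. The p at Prss32 is the smallest that this test can give, so 0 calls do not show that mLN and spleen were alike. More mLN than spleen lists held 148 of the 222 and fewer held 32, against 65.0% and 15.8% of all tested. The median difference in share was 0.333 for the 222 and 0.167 for all. The part of list length in these mLN and spleen differences was not tested.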

How the data were processed

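ATAC-seq peak lists of 18 libraries on mouse build mm10 were used as deposited. The submitters' processing notes name Trimmomatic 0.33 and, without a version, Bowtie2, bedtools and MACS; how each was set is not given in the sources used. The lists are one per library. The authors' deposited columns are a fold enrichment (ratio of summit reads to background), a −log10 p, a −log10 q and a score. Chromosomes 1 to 19 and X held 314425 of the 314829 peaks, and the other 404 were set aside. The smallest deposited −log10 p was 5.00. Per the labels, 500000 cells were tagmented for 30 min at 37 °C.

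Peaks were ranked by −log10 p, cut at 14000 per library and merged where they shared at least 1 bp. The members and gene lists were chosen with earlier results of these data known. Reads and background at each summit were recovered from fold and p, within 0.002, for 100% of peaks, with a single match for 99.3%. Chi-square per summit was taken over the 7413 regions in all 18 lists. It was 0.504 to 0.641 between replicates of a group and 0.607 to 0.961 between groups, and no pair stood apart. Independent read noise alone would give about 1. These values therefore cannot show whether libraries are independent, and each library was counted as 1 sample. Rank percentiles were compared with limma 3.58.1 (R 4.3.3, empirical Bayes with trend), presence with Fisher's exact test (scipy 1.17.1), both two-sided with Benjamini-Hochberg adjustment over all regions tested, and both were tested on simulated data. Regions were named by the nearest end of 21627 protein-coding genes (RefSeq, GRCm38.p6), whose strand was used only for promoters. Named regions are the first 20 by axillary share minus other share, ties by axillary percentile, all nearest to a gene on a list, any called by a test, and the first 3 outside each threshold, of which 1 is not reported here. Regions over gene starts, those with the smallest unadjusted p or largest rank difference, and genes with a pair of regions were added after their values were seen. Alternatives were other list lengths, the complete lists, ranking by fold, stricter overlap, summit windows, other thresholds, equal depth and each library left out.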

Additional observations from a re-analysis of the deposited data

Results flagged for a closer look

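Of 46 groups of values examined for 1 library far from the rest, 3 held one, and chance flags about 1 in 20 groups. The median fold of the regions was 6.41 in spleen low replicate 3, apart from the 7.07 to 7.20 of the other 5 spleen libraries; this library also had the fewest reads per 10 kb of the spleen libraries, 9.84, and the longest fragments, 233 bp. The median rank percentile of the regions was 23.4 in axillary high replicate 3, against 20.5 to 21.5 in the other 5 axillary libraries. The fold at the Foxo1 region 222579 bp from the gene was 7.89 in axillary high replicate 2, against 6.04 to 6.24 in the other 3 axillary libraries with a peak.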

How the results depend on the processing

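The number of axillary-biased regions was 343 and stayed within 1.5 times that with 10000 peaks per list (259), 12000 peaks (285), ranking by fold (354), an overlap of at least 50% both ways (482), 200 bp around summits (355) and equal depth with equal lists (362). The regions behind these counts changed more, since 16, 102, 239, 175, 334 and 180 of the 343 were among them. The count moved to 53 with the complete lists (18 shared), 166 at equal depth with complete lists (81 shared), 157 when 5 or more axillary libraries were asked for and 112 when at most 2 other libraries were allowed. Leaving out 1 library gave 157 to 429 regions. It gave 157 to 184 without each axillary library, and 395 to 429 without each other one, as counts kept their thresholds. The share within 1000 bp of a gene end was 11.7%, moved to 15.6% with the stricter overlap and was 7.61% to 14.0% with 1 library left out. At Cxcr4 the axillary share minus the other share turned to −16.7 percentage points in the complete lists and −8.33 at equal depth with complete lists; the cause was not tested. Calls at an adjusted p under 0.05 were 0 in all 3 tests under every alternative run, with 0 to 0 when 1 library was left out. The mLN against spleen test cannot give a p under 0.00216, which Prss32 reached with an adjusted p of 0.441, so its 0 calls say nothing of stability. With the replicate number as a block, limma made 0 calls and 441 at an unadjusted p under 0.05. Rank deviations of same-numbered axillary high and low libraries had r = −0.00566, −0.00119 and −0.0230, and unlike numbers gave −0.0238 to 0.0293. Such values include the read noise of single libraries. They cannot settle whether a number marks a shared animal or preparation, which the labels do not say. With regions in 2 or more libraries of each level, limma tested all 343 among 11715 regions, with 0 calls and 14 at an unadjusted p under 0.05, against 5.2% of all. The ranks tested are of peaks past the cut that also chose the 343, so the 14 are a description. At a median of 9 to 11 reads per summit in axillary libraries, a missing peak does not show a closed region.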
